A study of Rattus norvegicus with 9 samples.

Results

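The genes of the inflammatory branch of glucocorticoid action were followed in rat gastrocnemius muscle. They are the restraining factors Tsc22d3, Nfkbia, Zfp36 and Dusp1, the kinase gene Sgk1, the inflammatory targets Ccl2 and Icam1, and the NF-kB subunit genes Nfkb1 and Rela. Every probe set that the platform annotation assigns to exactly 1 of these symbols was taken, which gave 10 probe sets of 9 genes, out of 31042 probe sets and 14217 named genes other than controls. Dusp1 has 2 probe sets and each other gene has 1. The genes were picked with earlier results of these arrays known, so their counts below describe these genes and are no independent test of the pathway. All 10 probe sets met the filter on low signal, Ccl2 only through the vehicle arrays.

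Male Wistar rats of 250 g received drugs from Alzet osmotic pumps for 7 days, and total RNA from the gastrocnemius was hybridised to Affymetrix rat 230-2 arrays. There were 3 groups of 3 animals, each animal on an array of its own, and every group received the propylene glycol vehicle. The control group received vehicle alone, the second group dexamethasone at 0.7 mg/kg/day, and the third group dexamethasone at the same dose with testosterone. The testosterone dose is 28 mg/kg/day in the sample labels and 20 mg/kg/day in the series design. No group received testosterone alone. The labels mention no removal of testes or adrenals, and hormone levels were not measured here. In a piece of whole muscle, fewer cells of a type and less RNA per cell cannot be told apart.

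NF-kB is a family of transcription factors that switch on chemokines, cytokines and adhesion molecules. In resting cells the IkB proteins hold NF-kB dimers in the cytoplasm until IkB kinase marks them for destruction. Dexamethasone, a synthetic glucocorticoid, acts through the glucocorticoid receptor, which induces several brakes on this pathway and also represses inflammatory genes directly. In skeletal muscle, prolonged dexamethasone causes wasting, and androgens act on a related nuclear receptor that recognises similar DNA elements.

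The sequence upstream of the start site was read for 8 of the 9 genes from RefSeq promoters on GRCr8 (250 bases before each start, 33469 windows in the whole table). Ccl2 had no entry among these promoters, so its upstream sequence was not searched. Nfkbia is printed first because it had the largest log2 rise among the members past the threshold. It was also the only gene of the 8 read with a match to the kB consensus. That consensus is the NF-kB binding motif. The capitals mark the match, which reads GGGAATTTCC on the opposite strand and lies 31 to 22 bases before the start. Dusp1 is printed beside it because it is a known glucocorticoid-induced gene that did not rise here. Its capitals mark matches to the cyclic AMP response element and its core.
Nfkbia, GRCr8 chr6:78597073-78597322, minus strand: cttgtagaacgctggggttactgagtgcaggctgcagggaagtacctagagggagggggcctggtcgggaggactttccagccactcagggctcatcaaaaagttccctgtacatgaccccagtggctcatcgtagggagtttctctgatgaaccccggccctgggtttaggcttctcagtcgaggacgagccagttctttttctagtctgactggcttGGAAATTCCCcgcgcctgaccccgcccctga
Dusp1, GRCr8 chr10:17184603-17184852, plus strand: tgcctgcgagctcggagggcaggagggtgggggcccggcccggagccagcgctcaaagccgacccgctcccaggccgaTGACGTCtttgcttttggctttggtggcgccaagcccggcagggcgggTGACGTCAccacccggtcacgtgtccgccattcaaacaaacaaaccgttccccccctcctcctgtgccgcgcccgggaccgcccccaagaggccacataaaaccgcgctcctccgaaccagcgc

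All motifs were searched on both strands. The kB consensus was found in 6.33% of all windows. A looser kB core, GGNNNTTCC, which the Nfkbia consensus match contains, was found in 15.4% of all windows. It matched 4 times in the Nfkbia window, counting both strands at 1 of the positions, 3 times in the Icam1 window, counted likewise, and once in 1 of the 3 Tsc22d3 windows. The cyclic AMP response element TGACGTCA lies 124 to 117 bases before the Dusp1 start and occurs in 1.59% of windows. Its core TGACGTC, which the full element contains, lies also at 172 to 166 bases and occurs in 2.8% of windows. No member window held the glucocorticoid response palindrome GNACANNNTGTNC (0.373% of windows), its single hexamer TGTTCT (17.5%) or the AP-1 motif TGANTCA (6.34%). A match is a string of letters and was not tested for binding.

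Signals are given as log2(intensity + 16) after quantile normalization, so that each unit is a doubling for bright probe sets and less than the true change for dim ones. Levels are comparable between arrays for the same probe set, not between genes. A change passed when its limma p-value, adjusted by Benjamini and Hochberg over all 18625 probe sets tested, was under 0.05. The labels do not name batches. By how they were scaled before deposit and by their poly-A spike signals, the arrays fall into set A (vehicle replicates 1 and 3 and replicate 1 of both treated groups), set B (replicate 2 of all groups) and set C (replicate 3 of both treated groups). In the set C arrays the Gapdh control ratio of 3′ to 5′ signal was 4.94 and 6.22, against 1.06 to 1.17 in the other arrays, a ratio that rises when RNA or labelled target is shortened. Skeletal muscle fibre markers, 8 of 8 tested, had a summed linear signal of 213500 to 224700 in vehicle, 205100 to 206800 under dexamethasone and 218100 to 224100 under the combination, lowest in all 3 dexamethasone arrays. None passed, and Pvalb, chosen after its values were seen, had a log2 change of -0.92 under dexamethasone (limma adjusted p = 0.082). Of the 8 fibre markers, 3 had a positive log2 change under dexamethasone and 5 a negative one, with a median of -0.04. All but Pvalb lay between -0.08 (Myh4) and 0.07 (Acta1), so the fibre markers did not fall as a set. The part of the fibre markers in the members' values was not tested.

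Among the 10 member probe sets, dexamethasone against vehicle gave 2 rises (Tsc22d3 and Nfkbia), 1 fall (Ccl2) and 7 changes that did not pass. Over all probe sets tested, 1.05% passed in this comparison, 0.569% rising and 0.483% falling. At an unadjusted p under 0.05 there were 5 of the 10, where 15.5% of all probe sets met that limit. The members' median log2 change was -0.07, beside 0.01 over all probe sets tested. When testosterone was added, Tsc22d3 and Nfkbia lay near their vehicle levels and Ccl2 near its dexamethasone level, but no member passed in the comparison of the combination with dexamethasone.

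**Figure D1:**
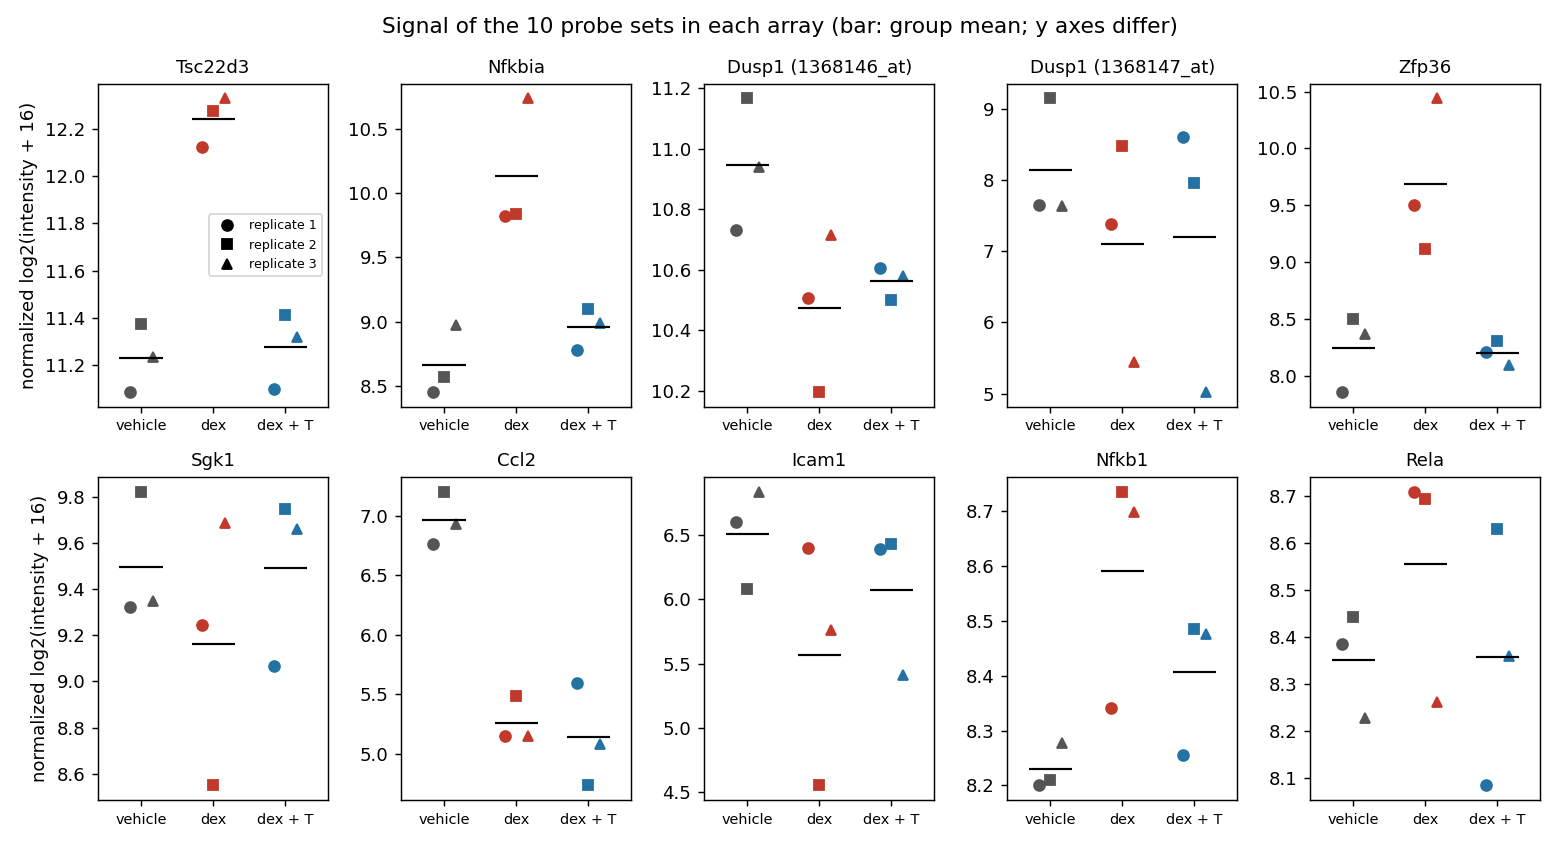
Normalized log2(intensity + 16) of the 10 probe sets (y axis, its range differing between panels) in the 3 arrays of each group (x axis, dex for dexamethasone and T for testosterone); bars are group means and symbols give the replicate number. Tsc22d3, Nfkbia and Zfp36 stand highest in all 3 dexamethasone arrays, and Ccl2 stands highest in all 3 vehicle arrays.

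Tsc22d3 encodes the glucocorticoid-induced leucine zipper protein GILZ, which binds the RelA subunit of NF-kB. Its levels were 11.09, 11.37 and 11.23 in vehicle replicates 1 to 3, 12.12, 12.28 and 12.33 under dexamethasone, and 11.10, 11.41 and 11.32 under dexamethasone plus testosterone. The 3 dexamethasone arrays stood above the 6 others, whose ranges overlapped.
The group means were 11.23 ± 0.14 in vehicle, 12.24 ± 0.11 under dexamethasone and 11.28 ± 0.16 under the combination (SD, n = 3 each). Tsc22d3 rose 2.02-fold under dexamethasone, a log2 change of 1.01 ± 0.18 (SE, 95% interval 0.61 to 1.41, limma adjusted p = 0.0378). In the combination against dexamethasone its log2 change was -0.97 ± 0.18 (interval -1.37 to -0.56), and it did not pass (adjusted p = 0.0852). The combination and vehicle means were 0.05 apart, with an interval from -0.35 to 0.45 (adjusted p = 0.973), so the 2 lower groups did not differ beyond their spread.
Within set A and set B, the dexamethasone array exceeded vehicle by 0.96 and 0.90, and the combination differed from dexamethasone by -1.02 in set A, -0.86 in set B and -1.01 in set C. The rise was thus of like size in sets A and B, and the difference between the combination and dexamethasone in all 3 sets. Without both set C arrays the rise was 0.97 (limma adjusted p = 0.0583). The rise passed under 7 of 21 alternative settings, with adjusted p from 0.00831 to 0.166. Leaving out 1 array gave 1 to 340 calls over all probe sets, against 196 in the full fit. The call of the rise was lost without any 1 of the 3 vehicle arrays, any 1 of the 3 dexamethasone arrays or replicate 2 of the combination, at log2 changes of 0.94 to 1.08 and adjusted p from 0.0579 to 0.166.

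Nfkbia encodes IkB alpha, the inhibitor that retains NF-kB in the cytoplasm and is itself an NF-kB target. Its levels were 8.46, 8.57 and 8.97 in vehicle, 9.82, 9.84 and 10.73 under dexamethasone, and 8.78, 9.10 and 8.99 under the combination. Every dexamethasone array was above every other array, and replicate 3, a set C array, was the highest.
The means were 8.67 ± 0.27, 10.13 ± 0.52 and 8.96 ± 0.16 (SD, n = 3 each). Nfkbia rose 2.76-fold under dexamethasone, a log2 change of 1.46 ± 0.28 (SE, interval 0.84 to 2.09, limma adjusted p = 0.0476). The combination against dexamethasone gave a log2 change of -1.17 ± 0.28 (interval -1.80 to -0.55, adjusted p = 0.147), which did not pass although no array overlapped. Combination and vehicle overlapped, with a difference of 0.29 (interval -0.34 to 0.92, adjusted p = 0.9).
Within sets A and B the rise was 1.10 and 1.27. Without both set C arrays it was 1.13 at an adjusted p of 0.0501. The call was also lost without any 1 of the vehicle arrays, without dexamethasone replicate 1 or 2, or without any 1 of the combination arrays, at log2 changes of 1.37 to 1.63 and adjusted p from 0.0566 to 0.165. The rise passed under 5 of 21 alternative settings, with limma adjusted p from 0.0169 to 0.165 over them. The combination stood below dexamethasone in each set, by -1.04, -0.74 and -1.74 in sets A, B and C.

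Zfp36 encodes tristetraprolin, which binds AU-rich elements in cytokine mRNAs and promotes their decay. Its levels were 7.86, 8.50 and 8.37 in vehicle, 9.50, 9.12 and 10.44 under dexamethasone, and 8.21, 8.31 and 8.10 under the combination. The dexamethasone arrays did not overlap with the others, and replicate 3 was again the highest of them.
The log2 difference between dexamethasone and vehicle was 1.44 ± 0.33 (SE, interval 0.70 to 2.18, n = 3 each), and it did not pass (limma adjusted p = 0.079). It passed under 4 of 21 alternative settings, with adjusted p from 0.0301 to 0.227 over them. The combination differed from dexamethasone by -1.48 ± 0.33 (interval -2.22 to -0.74, adjusted p = 0.126) and from vehicle by -0.04 (interval -0.78 to 0.70, adjusted p = 0.992).
Within sets A and B the difference between dexamethasone and vehicle was 1.38 and 0.62, a wider spread than for Tsc22d3. Without set C it was 1.03 (adjusted p = 0.0859).

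Each of these 3 genes was higher in all dexamethasone arrays than in all vehicle arrays, which held for 12.5% of all probe sets tested. Each was lower in all combination arrays than in all dexamethasone arrays, which held for 7.35% of all probe sets tested. Both comparisons use the same dexamethasone arrays, so a high dexamethasone value enters both.

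**Figure D2:**
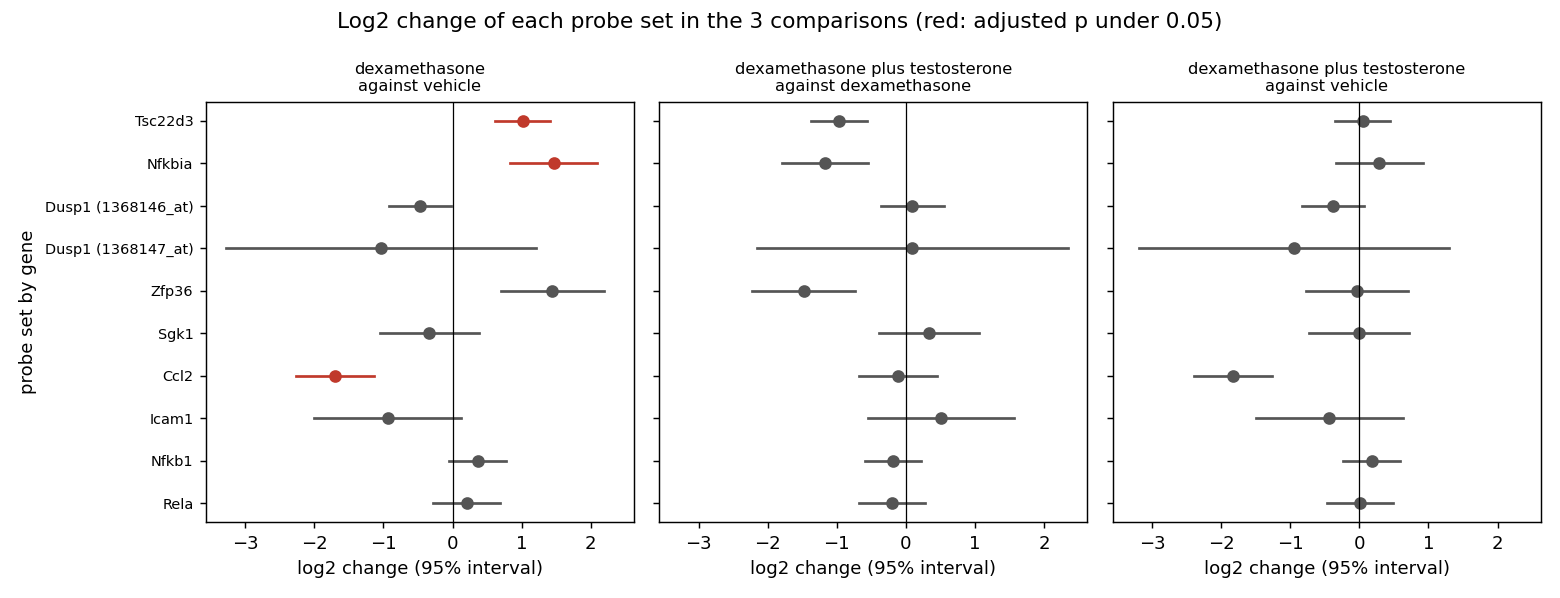
Log2 change of each probe set (y axis) with its 95% interval (x axis) in the 3 comparisons; red marks an adjusted p under 0.05. Tsc22d3 and Nfkbia lie to the right of 0 and Ccl2 to the left under dexamethasone, while Ccl2 lies at -1.83 in the combination against vehicle, where no member passed.

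Dusp1 encodes a phosphatase that inactivates the stress kinases of the MAP kinase family. The brighter of its probe sets, 1368146_at, read 10.73, 11.17 and 10.94 in vehicle, 10.51, 10.20 and 10.71 under dexamethasone, and 10.61, 10.50 and 10.58 under the combination. Both treated groups lay below vehicle in every array, the dexamethasone array nearest to vehicle falling short of the lowest vehicle array by little.
The log2 difference was -0.47 ± 0.20 under dexamethasone (SE, interval -0.93 to -0.02) and did not pass (unadjusted p = 0.0423, limma adjusted p = 0.301). The combination differed from vehicle by -0.38 (interval -0.84 to 0.07, adjusted p = 0.836) and from dexamethasone by 0.09 (interval -0.36 to 0.54, adjusted p = 0.929). Lying below vehicle in every array held for 10.4% of all probe sets tested under dexamethasone and 5.79% under the combination.
The other Dusp1 probe set, 1368147_at, read 7.64, 9.14 and 7.63 in vehicle, 7.38, 8.47 and 5.45 under dexamethasone, and 8.60, 7.96 and 5.02 under the combination. Its 2 lowest values were in the set C arrays, the arrays with high 3′ to 5′ ratios. The log2 difference under dexamethasone was -1.04 ± 1.00 (SE, interval -3.28 to 1.21, adjusted p = 0.67), an interval wider than the whole difference seen in the brighter probe set.

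Sgk1 encodes a serum- and glucocorticoid-regulated kinase that acts on ion transport and cell survival. Its levels were 9.32, 9.82 and 9.35 in vehicle, 9.25, 8.55 and 9.69 under dexamethasone, and 9.07, 9.75 and 9.66 under the combination. All groups overlapped. The log2 difference under dexamethasone was -0.34 ± 0.32 (SE, interval -1.06 to 0.38, limma adjusted p = 0.666), and it turned to 0.05 when each array was centred on its median. The combination differed from dexamethasone by 0.33 (interval -0.39 to 1.05, adjusted p = 0.785), so a change of up to about a doubling in that direction was within the interval.

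Ccl2, the chemokine that draws monocytes into tissue, fell under dexamethasone. Its levels were 6.76, 7.20 and 6.93 in vehicle, 5.15, 5.49 and 5.15 under dexamethasone, and 5.60, 4.74 and 5.09 under the combination. All 3 vehicle arrays stood above all 6 treated arrays, and the 2 treated groups overlapped. Of all probe sets tested, 10.4% lay below every vehicle array in all dexamethasone arrays, and 5.79% in all combination arrays.
As a multiple of the array's own median intensity, Ccl2 was 1.45, 1.89 and 1.69 in vehicle, 0.303, 0.448 and 0.259 under dexamethasone, and 0.473, 0.147 and 0.264 under the combination. Before any normalization by rank, it was therefore brighter than the median probe set in each vehicle array and dimmer in each treated array. Detection calls were not used here, so how far the treated arrays' signals exceed background was not measured.
The means were 6.97 ± 0.22, 5.26 ± 0.19 and 5.14 ± 0.43 (SD, n = 3 each). Under dexamethasone Ccl2 fell by 1.70 on the log2 scale (SE 0.25, interval -2.27 to -1.14, limma adjusted p = 0.0244). Since the dexamethasone mean lies under the limit of the low-signal filter, this size depends on the pseudocount: it was -2.31 with 1 and -1.02 with 64, and no fold change is given. The combination against vehicle gave -1.83 ± 0.25 (SE, interval -2.39 to -1.26) and did not pass (limma adjusted p = 0.27). Its unadjusted limma p, 4.02e-05, was the lowest of all 18625 probe sets in that comparison. Ccl2 was tested only through its high vehicle values, so this rank against vehicle is no support by itself.
The combination and dexamethasone differed by -0.12 (interval -0.69 to 0.44, adjusted p = 0.923). The upper end of that interval, 0.44, is on a scale that understates changes of dim probe sets. Within sets A, B and C the combination differed from dexamethasone by 0.45, -0.75 and -0.06. Tsc22d3 and Nfkbia thus had intervals for the same comparison that lay wholly below 0, while that of Ccl2 spanned 0. The difference between genes was not tested.

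Ccl2 met the filter on low signal narrowly and through the vehicle arrays alone. Its mean over the 9 arrays was 5.79 against a limit of 5.75, and its mean over the 6 treated arrays was 5.20. A dim probe set that meets the filter this way had to be higher in vehicle, so that its passing is not support by itself. With no filter its adjusted p was 0.0552. It met no filter, and so was not tested, when any 1 vehicle array was left out, under median centring and with the filter at the 60th percentile. In the 16 alternatives that tested it, the log2 change lay between -2.31 and -1.02 and 10 passed. The call was lost without dexamethasone replicate 1 (log2 change -1.67, adjusted p = 0.102) or replicate 2 (-1.79, adjusted p = 0.0602). Those fits called 6 and 13 of all probe sets tested, against 196 in the full fit. The call was lost too with the array sets as a block (log2 change -1.66, limma adjusted p = 0.0507). It was likewise lost with the replicate block (-1.70, adjusted p = 0.0578) and a pseudocount of 1 (-2.31, adjusted p = 0.0532).
Within sets A and B, dexamethasone differed from vehicle by -1.70 and -1.72, and the combination by -1.25 and -2.46. The fall under dexamethasone was of equal size in both sets to the first decimal. Each of these differences rests on 1 dexamethasone array and on the vehicle values through which Ccl2 met the filter. Their likeness is therefore no separate support. Without set C the log2 change under dexamethasone was -1.58 (adjusted p = 0.0355).

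**Figure D3:**
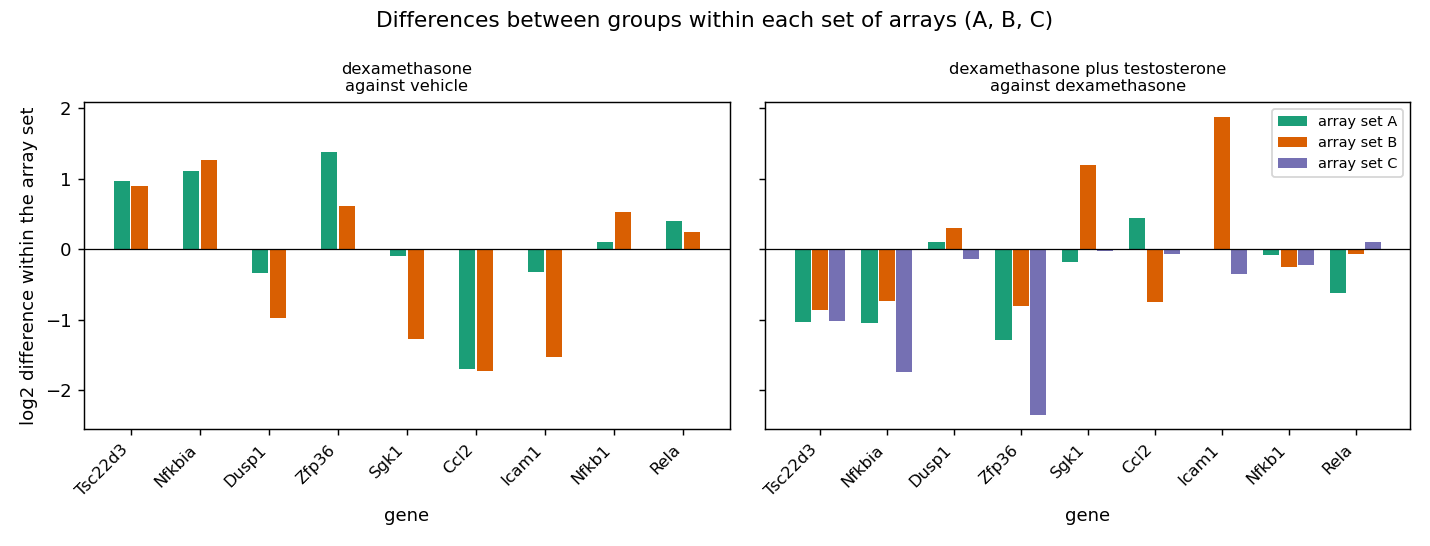
Log2 difference between the groups (y axis) within each set of arrays for the 9 genes (x axis, the brighter Dusp1 probe set), with set C absent from the left panel because it holds no vehicle array. Tsc22d3, Nfkbia and Zfp36 are positive and Ccl2 negative in both sets on the left, and the first 3 are negative in all sets on the right.

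Ccl2 is made by macrophages, fibroblasts and endothelial cells, so markers of those cells were measured in the same arrays. Fibroblast markers (7 of 8 measured and tested) had a summed linear signal of 24770 to 36810 in vehicle, 4336 to 15240 under dexamethasone and 12070 to 27960 under the combination. All 7 had a negative log2 change under dexamethasone and 1 passed, Mfap5, a microfibril protein gene (-1.75, limma adjusted p = 0.0338). Col3a1, the marker at the highest mean, had a change of -3.0 that did not pass (adjusted p = 0.0857).
Endothelial markers (7 of 8 tested) summed to 2856 to 3367 in vehicle, 2050 to 2527 under dexamethasone and 2161 to 2464 under the combination, and none passed. Tek, an endothelial receptor gene at the highest mean, differed by -0.09 under dexamethasone (limma adjusted p = 0.896). Kdr, chosen after its values were seen as the one of lowest p, differed by -0.93 (adjusted p = 0.0967). Of the 7, 1 had a positive log2 change (Pecam1, 0.02) and 6 a negative one. Cldn5 was at -0.24, and Tie1, Vwf and Emcn were at -0.60 to -0.70. Both Ccl2 and the endothelial sum were higher in all vehicle arrays than in all treated arrays. For single probe sets, a value below every vehicle array held for 10.4% under dexamethasone and 5.79% under the combination. No such share was computed for sums of markers.
Macrophage markers (8 of 10 tested, Adgre1 and Itgam under the filter) summed to 1161 to 1397 in vehicle, 675.9 to 1859 under dexamethasone and 610.1 to 1510 under the combination, and none passed. Their groups overlapped. Under dexamethasone 2 of the 8 had a positive log2 change and 6 a negative one. Csf1r, the marker at the highest mean, had -0.58 (adjusted p = 0.563), and Cd163, chosen after its values were seen as the one of lowest p, had 1.04 (adjusted p = 0.119). No marker of these types read 0 in any array.
The fibroblast sum lay under the vehicle range in 5 of the 6 treated arrays, together with Ccl2, and within it in combination replicate 1 (27960). The endothelial sum lay under the vehicle range in all 6. The part of these cell types in the Ccl2 result was not tested. T cell (3 of 6), neutrophil (2 of 4), adipocyte (3 of 4) and smooth muscle (5 of 5) markers were tested without a call, and no B cell marker met the filter. Their markers at the highest mean, Cd5, S100a9, Fabp4 and Acta2, had log2 changes under dexamethasone of -0.35, 1.08, -0.27 and -0.32 (adjusted p = 0.517, 0.31, 0.619 and 0.669). Other tested T cell, neutrophil and adipocyte markers had the opposite sign (Cd3g 0.02, Lck 0.21, Csf3r -0.13 and Plin1 0.53). All 5 smooth muscle markers were negative, Rgs5 at -1.25 (adjusted p = 0.155).

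**Figure D4:**
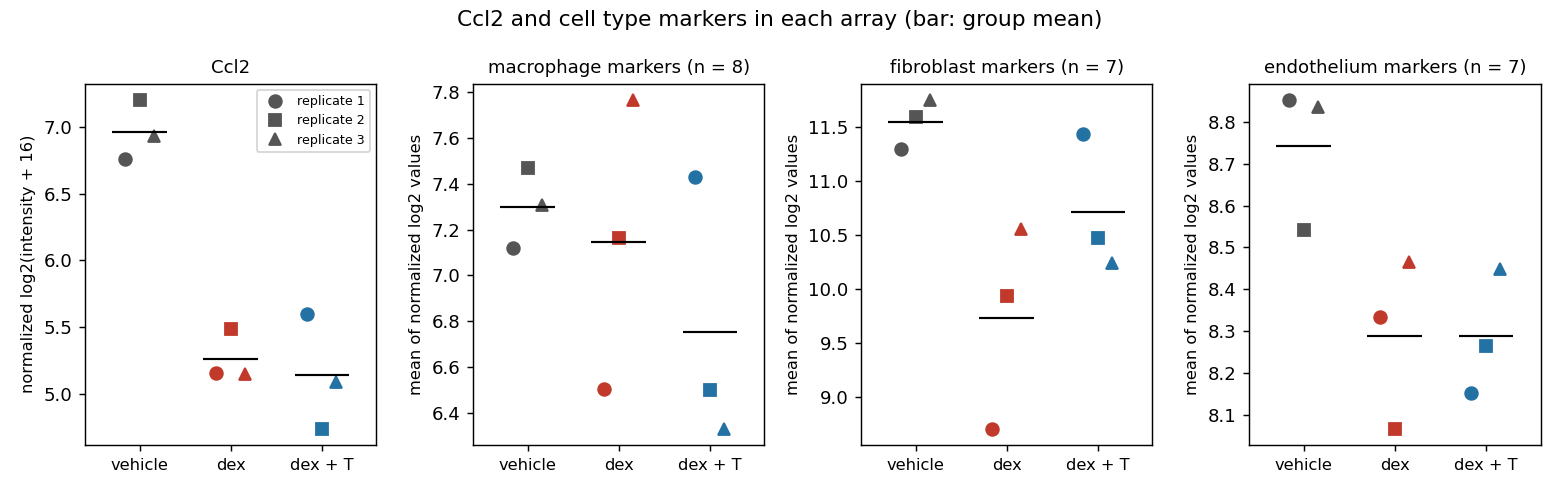
Normalized log2 signal of Ccl2 and the mean of the normalized log2 values of macrophage, fibroblast and endothelial markers (y axes, ranges differing) in each array by group (x axis); bars are group means. Ccl2 and the endothelial mean separate vehicle from the treated arrays, whereas 1 of the 6 treated arrays reaches the vehicle arrays for fibroblast markers and the groups overlap for macrophage markers.

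Icam1, the adhesion molecule that leukocytes grip on endothelium, read 6.61, 6.08 and 6.84 in vehicle, 6.4, 4.55 and 5.76 under dexamethasone, and 6.39, 6.43 and 5.41 under the combination. Dexamethasone replicate 2 was the lowest array, and the groups overlapped. The log2 difference under dexamethasone was -0.94 ± 0.47 (SE, interval -2.0 to 0.12, limma adjusted p = 0.385), and within sets A and B it was -0.32 and -1.53. The combination differed from dexamethasone by 0.51 (interval -0.55 to 1.56, adjusted p = 0.772). Its mean lay only 0.30 above the filter limit.

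Nfkb1 encodes the precursor of the NF-kB DNA-binding subunit. It read 8.20, 8.21 and 8.28 in vehicle, 8.34, 8.74 and 8.70 under dexamethasone, and 8.26, 8.49 and 8.48 under the combination. By a small margin, every dexamethasone array was above every vehicle array, which held for 12.5% of all probe sets tested. The log2 difference was 0.36 ± 0.18 (SE, interval -0.05 to 0.77) and did not pass (limma adjusted p = 0.385).
Rela, which encodes the transactivating subunit RelA, read 8.38, 8.44 and 8.23 in vehicle, 8.71, 8.69 and 8.26 under dexamethasone, and 8.08, 8.63 and 8.36 under the combination. The groups overlapped, and the difference under dexamethasone was 0.20 ± 0.21 (SE, interval -0.28 to 0.68, adjusted p = 0.701). The intervals of both subunit genes lay within 1 log2 unit of 0.

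In the combination against dexamethasone, none of the 10 member probe sets passed (0 by limma, with 3 at an unadjusted p under 0.05), where 0.113% of all probe sets did and 11% had an unadjusted p under 0.05. Those 3 were Tsc22d3, Nfkbia and Zfp36. The members' median log2 change was -0.15, beside -0.00 over all probe sets. In the combination against vehicle none passed either (1, Ccl2, at an unadjusted p under 0.05), where 0% of all probe sets did and 6.12% had an unadjusted p under 0.05. The medians were -0.02 and 0.02.

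The rest of the pathway was described from lists of genes, each represented by its brightest probe set. Over the 10428 genes tested, 0.738% rose and 0.566% fell under dexamethasone, 17.6% had an unadjusted p under 0.05, and the median log2 change was 0.04. Of the other NF-kB subunits, IkB proteins, kinases and their regulators (ubiquitin-editing enzymes and adaptors such as Tnfaip3, Cyld, Traf6 and Tab2), 16 of 22 were tested and none passed, with 2 at an unadjusted p under 0.05 and a median of 0.17. These were Nfkbib, encoding IkB beta (0.71 ± 0.23 SE, limma adjusted p = 0.184), and Ikbkb, encoding an IkB kinase (0.52 ± 0.17 SE, adjusted p = 0.169). The second Ikbkb probe set was below the filter.
Of the inflammatory receptors and adaptors, 9 of 17 were tested, none passed, 3 had an unadjusted p under 0.05 and the median was -0.23. Il6r, the interleukin receptor gene, had a log2 change of 1.98 ± 0.41 under dexamethasone (SE, adjusted p = 0.0585) and of -1.04 in the combination against dexamethasone (adjusted p = 0.392). Cxcr4, the chemokine receptor gene, had one of -1.27 ± 0.35 (adjusted p = 0.128), and its other probe sets gave -0.54 and -0.67.
A list of 25 other inflammatory genes held chemokines, cytokines, adhesion molecules and the enzymes Ptgs2, Nos2, Sod2, Plau and Mmp9. Of these 9 were tested, 3 of them enzymes (Nos2, Sod2 and Plau), and no gene passed or had an unadjusted p under 0.05 by limma, with a median of -0.00, the value of Plau. Ccl7, a chemokine gene close in sequence family to Ccl2, and Il6, Tnf and Il1b were below the filter. The tested ones of lowest p were Vcam1, an adhesion molecule gene (-0.61, adjusted p = 0.335), and Cxcl9, a chemokine gene (-0.49, adjusted p = 0.628).

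Of the relatives and partners of the restraining factors, 19 of 25 were tested and 1 rose under dexamethasone, with a list median of -0.10. That gene was Dusp7, a phosphatase of the family of Dusp1 that acts on the ERK kinases, at 1.79 ± 0.33 (SE, limma adjusted p = 0.0414). Between the combination and dexamethasone, Dusp7 differed by -0.67 and did not pass (adjusted p = 0.509).
Of the immediate early genes, 16 of 18 were tested and none passed, 5 had an unadjusted p under 0.05 and the median was 0.24. Junb, an AP-1 subunit gene, had a change of 0.98 (adjusted p = 0.0744) and Gadd45b, a stress-response gene and NF-kB target, one of 0.93 (adjusted p = 0.131). The combination differed from dexamethasone by -0.20 and -0.99 for them (adjusted p = 0.816 and 0.202).

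The genes whose profile was most like each called member were sought among 10419 other genes, by the mean absolute difference over the 9 arrays between log2 values taken relative to each gene's vehicle mean. Genes picked this way change with the member by the choice itself, so their changes and p-values are no separate support for it. For Tsc22d3 the nearest were Ptprr (0.139), Lancl1 (0.151), Tmem106b (0.157) and Plpp1 (0.158). Their mean changes under dexamethasone were 0.69 to 1.03, and under the combination -0.08 to 0.00. The other probe sets of Lancl1 gave 0.21 and -0.14 under dexamethasone, so its likeness rests on 1 of its 3 probe sets.
For Nfkbia they were Klf9 (0.240), Enc1 (0.243), Hgs (0.243) and Gata2 (0.245). Klf9 is a transcription factor gene known to be induced by glucocorticoids, and it rose by 1.21 under dexamethasone (limma adjusted p = 0.0244), while its other tested probe set gave 0.19 ± 1.49 (SE). Enc1 and Hgs rose too, by 1.23 and 1.52 (adjusted p = 0.0359 and 0.0279). The other Enc1 probe sets were below the filter and differed by 0.26, -0.51 and 0.53.
For Ccl2 they were Sparc (0.367), Cxcr4 (0.377), Col6a2 (0.395) and Fn1 (0.408), at larger distances. Sparc, Col6a2 and Fn1 encode proteins of the extracellular matrix. Col6a2 and Fn1 fell under dexamethasone, with log2 changes of -1.98 and -2.24 (adjusted p = 0.0359 and 0.0324). The second Col6a2 probe set gave -0.28.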

How the data were processed

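The values analysed are linear microarray intensities, 1 signal for each of 31099 probe sets per array, as deposited by the authors. The signal algorithm is not given in the sources used here. Trimmed means of the arrays of set A were 113 to 206.8 and those of the other 5 arrays 500.3, so the deposited arrays were not on a common scale. First 57 control probe sets were removed, and then the log2(intensity + 16) values were quantile normalized. The 18625 probe sets with a mean at or over the 40th percentile were fitted with limma 3.58.1 (lmFit, eBayes) in R 4.3.3. The fit had 1 mean per group over all 9 arrays. The number of arrays limits the precision. Benjamini-Hochberg adjustment ran over all probe sets tested in each comparison.

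Symbols came from the platform annotation, updated through gene IDs to GRCr8 (20758 found by ID). Of the probe sets, 20826 had 1 symbol, 436 several and 9780 none here. All member probe sets are named, from each list the genes past the threshold or otherwise the 2 of lowest p, the 4 nearest profiles of each called member, and cell type markers at the highest mean or past the threshold. The other marker genes quoted were chosen after their values were seen. The members and lists were chosen with earlier results of these data known. Alternatives varied the normalization, pseudocount, filter, variance model, arrays in the fit, array weights, replicate number, array sets and each array left out. The fit was tested on simulated data for dexamethasone against vehicle, with 18625 probe sets and equal noise. All 165 tested probe sets changed by 3 log2 units were recovered, with 13 false calls. Planted changes that fell below the filter were not counted, and changes of the members' size were not simulated. Labels give separate animals as replicates.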

Additional observations from a re-analysis of the deposited data

How the results depend on the processing

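The count of members past the threshold under dexamethasone, 3 of 10, was 0 with median centring, a pseudocount of 1, no filter, or the array sets as a block, and 1 with only the 2 groups fitted or without set C. It was 2 to 4 under the 5 other settings apart from the replicate block, and 0 to 2 when 1 array was left out. In the fit with the replicate block it was 0, with 13 probe sets called in all against 196. Calls over all probe sets were 130 with median centring, 54 with a pseudocount of 1, 48 with no filter and 179 with the array sets as a block. They were 123 with only the 2 groups fitted, 460 without set C, and 141 to 616 under the 5 other settings. Leaving out 1 array gave 1 to 340 calls over all probe sets. Same-numbered arrays correlated between -0.20 and 0.59 in their deviations, and 6 of 9 best matches had the same number (3 of 3 between dexamethasone and the combination, where the number coincides with the array set). Since not every correlation exceeded 0.1 and the labels give no shared source, the numbers were not taken as pairs. For the combination against dexamethasone the count of 0 became 1 (Tsc22d3) with a pseudocount of 64, the filter at the 60th percentile or an intensity trend, and against vehicle it became 1 (Ccl2) with array weights. Leaving out 1 array gave 0 members in both. Over all probe sets, the pseudocount of 64, the filter at the 60th percentile and the intensity trend gave 102, 83 and 149 calls, against 21. Against vehicle, array weights gave 5 calls, against 0.

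Median centring moved the median of all probe sets by 0.19 under dexamethasone and 0.17 for the combination against vehicle. Tsc22d3, Nfkbia, Zfp36, Nfkb1 and Rela stayed higher and Ccl2, Icam1 and both Dusp1 probe sets lower under dexamethasone in every alternative that tested them. The signs that turned belonged to changes that did not pass. Under dexamethasone Sgk1 became 0.045 with median centring. For the combination against vehicle, Tsc22d3 became -0.023 with array sets as a block, Dusp1 (1368147_at) 0.13 without set C, Zfp36 0.14 with median centring, 0.12 with array weights and 0.013 without set C, Sgk1 0.31 with median centring and 0.20 with array weights, and Rela -0.087 with trimmed-mean scaling. Leaving out 1 array gave ranges of -0.025 to 0.14 for Tsc22d3, -1.69 to 0.14 for Dusp1 (1368147_at), -0.23 to 0.092 for Zfp36, -0.13 to 0.21 for Sgk1 and -0.13 to 0.15 for Rela in that comparison. In the combination against dexamethasone the ranges were -0.049 to 0.21 and -0.72 to 1.16 for the Dusp1 probe sets 1368146_at and 1368147_at, -0.37 to 0.078 for Ccl2 and -0.0015 to 0.94 for Icam1. The cause was not tested. With 3 arrays a group, the number of arrays limits what the intervals can resolve, and dim probe sets such as those of Ccl2 and Icam1 lie near the filter limit.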
